A study of Mus musculus with 7 samples.

Results

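Pericytes and smooth muscle cells, together called mural cells, wrap the walls of blood vessels. This account follows 10 genes that mark them in interscapular brown fat, a tissue that makes heat, of mice with and without PGAM5, a mitochondrial protein phosphatase. The genes are Acta2, Myh11, Tagln, Cnn1, Rgs5, Pdgfrb, Cspg4, Notch3, Kcnj8 and Abcc9. They were taken by name from a count table of 53715 gene identifiers, and all 10 were among the 15123 genes with enough counts to be tested. All animals were males of the C57BL/6J strain, 10 weeks old. The comparison set 3 libraries of wild type (WT) against 3 of PGAM5 knockout (KO), and KO 4 of the labels was not analysed here. The labels name the knockout only as PGAM5 KO, with no cell type or promoter for the deletion, and the design text calls the samples individuals.

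Smooth muscle cells of arterioles contract and set blood flow, and they carry the contractile proteins whose genes are driven by SRF and myocardin. Pericytes sit on capillaries, depend on platelet-derived growth factor (PDGF) from endothelium for their recruitment, and answer to Notch ligands on the endothelial surface. Brown fat is densely supplied with capillaries, and its blood flow increases when it makes heat.

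Total counts ran from 18034204 to 33617762 per library, and a count of 3, the limit that a count of 0 allows, lay between 0.0883 and 0.200 CPM (counts scaled to the library's TMM-adjusted total). That limit covers counting error only. Pgam5 itself had 122 to 186 counts in WT libraries but 1 to 11 in KO libraries (log2 -4.84, SE 0.59, edgeR adjusted p = 0.0243; 5.08e-22 to 0.165 over the alternatives). On the first principal component WT 2 lay at -65.0 and KO 3 at 66.8, outside the range of -13.0 to 8.23 of the rest, and 43.0% and 19.7% of their counts came from the mitochondrial genome, against 28.2% to 34.1% in the others. Brown adipocyte markers summed to 16988 to 20772 CPM in WT and to 20009.7 to 23599 CPM in KO, so the labelled tissue was present in each library. In whole tissue, a change in the number of mural cells and a change in an mRNA per cell cannot be told apart. P-values set the difference between the groups against the spread between these animals' libraries, an estimate that draws on all tested genes.

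Of the 10 mural genes, 9 had a positive log2 fold change (KO over WT) and 0 passed the edgeR adjusted p of 0.05, a threshold that 0.0198% of all tested genes passed as higher and 0.0397% as lower. At an unadjusted edgeR p under 0.05, 6 members were higher (Acta2, Pdgfrb, Cspg4, Notch3, Kcnj8 and Abcc9) and 0 were lower, against 6.3% and 5.49% of all tested genes. The groups were fully separated, KO highest, for 4 members (Acta2, Cspg4, Notch3 and Kcnj8), which held for 10.1% of all tested genes, while 9.39% were separated with KO lowest. DESeq2 called 1 member higher, Cspg4, against 0.571% of the genes it adjusted. With no count filter edgeR called 4 members higher (Pdgfrb, Cspg4, Notch3 and Abcc9), against 1.18% of genes. That fit had a median of 111496 degrees of freedom, against 9.61 with the filter. Its SE was 0.21 for Cspg4 and for Pdgfrb, against 0.36 and 0.32 with the filter. The median log2 fold change of the members was 0.58 (range -0.20 to 1.31), and that of all tested genes was -0.0019. The members were chosen with earlier results of these data known. Their counts and median are therefore set beside all tested genes as a description, with no test over the list. Without WT 2 and KO 3 the members' median was 0.32, and with an offset for transcript length and GC content, chosen after the data were seen, it was 0.43.

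**Figure D1:**
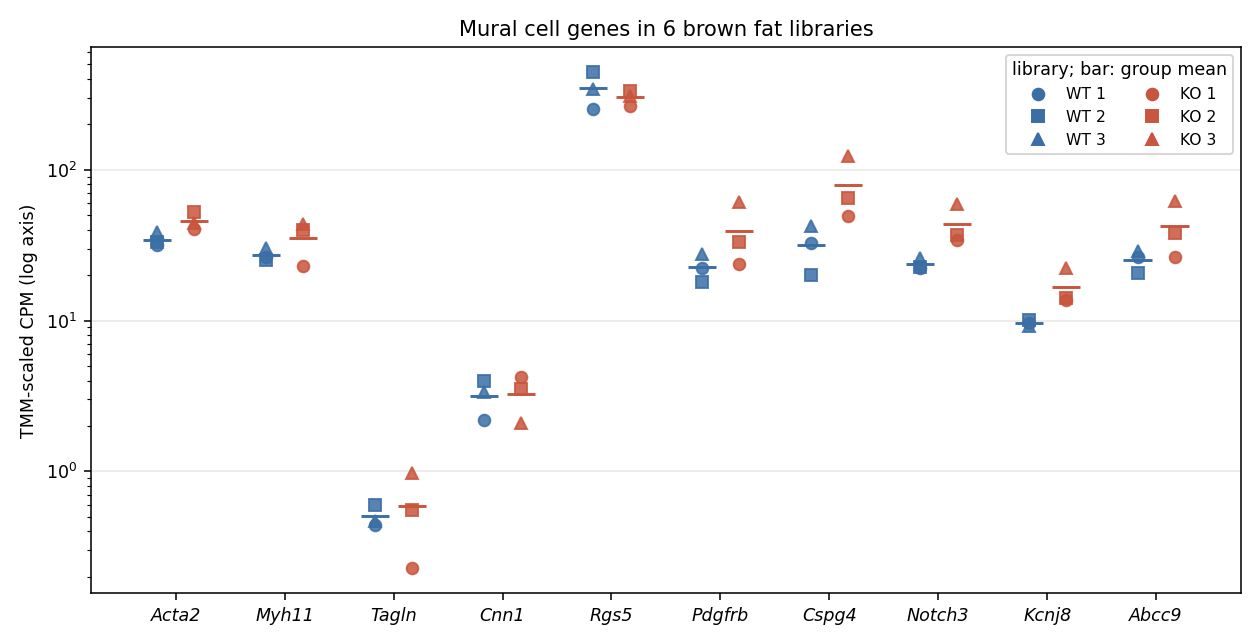
TMM-scaled CPM (log axis) of the 10 mural genes in each library; blue symbols are WT, red symbols KO, and short bars are group means of 3 libraries. The red points lie above all blue points for Acta2, Cspg4, Notch3 and Kcnj8. KO 3 is the highest library for Myh11, Tagln, Pdgfrb, Cspg4, Notch3, Kcnj8 and Abcc9.

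The contractile genes came first in the comparison. Acta2 encodes smooth muscle alpha-actin, the main thin filament protein of vascular smooth muscle. The WT libraries, 1 to 3 in order, held 781, 496 and 1314 counts of it, or 31.6, 33.1 and 38.7 CPM. The KO libraries held 895, 1226 and 905 counts, or 40.7, 52.6 and 44.2 CPM. The groups did not overlap, and their gap, from 38.7 to 40.7 CPM, was small beside the range within KO. Means were 34.4 ± 3.75 (WT) and 45.8 ± 6.12 CPM (KO; SD, n = 3 each). The log2 fold change was 0.41 (SE 0.17, 95% interval 0.038 to 0.79), and edgeR gave an adjusted p of 0.409. Without WT 2 and KO 3 it was again 0.41, and leaving out 1 library it ran from 0.30 (without KO 2) to 0.50 (without WT 3). Acta2 (ENSMUSG00000035783.8) lies on chromosome 19 from 34241090 to 34255590 (mm10), on the minus strand. Its coding sequence resembles those of the other muscle actins, so some reads could be shared with them. Acta1 stood at 0.455 to 10.8 CPM and Actg2 at 0.467 to 2.23 CPM.

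The Acta2 promoter is shown because it carries the SRF motif that the other printed promoters lack. The sequence is RefSeq's (GRCm38.p6, which is mm10), from 250 bases before to 50 after the start that RefSeq annotates. It lies at chr19:34255324-34255623 on the minus strand. The gene span given above, from another annotation, reaches 34255590, so most of the window lies inside it. Capitals mark 2 matches to the CArG box, each with 1 other base in its A/T core (CCCTATATGG and CCTTGTTTGG), and the RBPJ core TGGGAA, whose first 3 bases are also the last 3 of the second match.
Acta2: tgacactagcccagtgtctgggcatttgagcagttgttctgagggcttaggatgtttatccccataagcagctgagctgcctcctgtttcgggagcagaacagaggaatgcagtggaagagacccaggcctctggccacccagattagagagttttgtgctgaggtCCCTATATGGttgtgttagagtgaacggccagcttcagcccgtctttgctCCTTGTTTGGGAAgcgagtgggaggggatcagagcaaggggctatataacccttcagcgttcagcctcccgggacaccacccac
A strict CArG box was found in 1.63% and a box with at most 1 other base in its core in 9.98% of 32851 RefSeq windows of this length, on either strand. TGGGAA was found in 25.6% and the MCAT core CATTCC, which Acta2 also holds on the minus strand of the window, in 14.7%. Windows were used for 7 of the 10 members, not for Myh11, Tagln and Pdgfrb, and of those 7 Acta2 alone had a CArG match of either kind. Among 18 of 20 other contractile genes with a window, Myl9, Synm and Cacna1c had one. A match is a description of letters, not of a bound site.

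Myh11, the smooth muscle myosin heavy chain and the most restricted marker of mature smooth muscle, was at 26.5, 25.1 and 30.5 CPM in WT and 23.0, 39.6 and 43.5 CPM in KO. KO 1 lay below all WT libraries and the other KO libraries above them. The difference of 0.37 on the log2 scale (SE 0.23, 95% interval -0.16 to 0.89) missed the threshold, and it was 0.14 without WT 2 and KO 3 and 0.092 with the length and GC offset. Cnn1, which encodes calponin, an actin-binding regulator of contraction, was at 2.18, 4.00 and 3.35 CPM in WT and 4.23, 3.52 and 2.1 CPM in KO. The groups were interleaved, with a log2 fold change of 0.055 (SE 0.36, 95% interval -0.75 to 0.86). Tagln, which encodes the actin-binding protein transgelin, was counted 11, 9 and 16 times in the WT and 5, 13 and 20 times in the KO libraries. At 0.227 to 0.977 CPM it was close to the limit that a count of 0 allows, and its interval of -1.11 to 1.56 on the log2 scale includes differences in either direction.

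Per kilobase of exon, Acta2 was 41.0 to 162 times the level of Tagln and 10.3 to 26.2 times that of Cnn1, depending on the library. These ratios rest on joined exon lengths of 2196 (Acta2), 1988 (Tagln) and 2736 bases (Cnn1). The median transcript lengths were 1430.5, 982 and 1046.5 bases. The deposited value for Tagln may not hold all its reads. The antisense gene Gm48529 covers 62.4% of its exon bases and Pcsk7 covers 5.43%, both on the opposite strand. The strand setting of the counting is not given in the sources used here. Gm48529 had 97 counts over the 6 libraries, Pcsk7 2811 and Tagln 74. Where strand is not used, reads from such overlapping genes cannot be told apart.

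Of 20 further contractile and contraction control genes, 19 were tested, 13 were positive and 0 passed in edgeR. At an unadjusted edgeR p under 0.05, 2 were higher and 0 lower, against 6.3% and 5.49% of all tested genes. The median log2 fold change was 0.14. The groups were fully separated with KO highest for 2 and with KO lowest for 0, against 10.1% and 9.39% of all tested genes. In each related list, lack of overlap was among the grounds for naming a gene. Myl9, the regulatory light chain of smooth muscle myosin, was at 14.6, 16.8 and 18.3 CPM in WT and 20.1, 26.8 and 25.6 CPM in KO (log2 0.54, SE 0.18, edgeR adjusted p = 0.374). Its groups did not overlap, like those of Cacna1c, the L-type calcium channel pore (log2 0.76, SE 0.27). The abundant members went several ways, with Des (desmin) at 0.20 (SE 0.17), the myosin light chain kinase gene Mylk at 0.031 (SE 0.19) and the tropomyosin gene Tpm1 at -0.65 (SE 0.31). WT 2 alone held 164 CPM of Tpm1, against 62.0 to 79.2 CPM in the other libraries, and without it the value was -0.15.

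Of the 12 SRF and myocardin regulators 11 were tested, 7 were positive and 0 passed in edgeR, with a median of 0.047. The unadjusted edgeR p was under 0.05 for 1 higher and 0 lower, against 6.3% and 5.49% of all tested genes. Full separation with KO highest held for 2 and with KO lowest for 0, against 10.1% and 9.39%. The myocardin-related coactivator genes Mrtfa and Mrtfb stood at 0.53 (SE 0.27) and 0.65 (SE 0.24) on the log2 scale, and for both the KO libraries lay above the WT libraries. Without WT 2 and KO 3 they stood at 0.20 and 0.26, and with the length and GC offset at 0.18 and 0.62. Klf4, which encodes a zinc finger repressor of contractile genes, was at 28.4, 26.6 and 33.2 CPM in WT and 9.91, 24.9 and 31.9 CPM in KO. Its value of -0.41 (SE 0.35) missed the threshold, and it was -0.044 without KO 1, the low library. The LIM protein genes Csrp1 and Csrp2 stood at -0.25 (SE 0.27) and -0.37 (SE 0.32).

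Rgs5 encodes a GTPase activator that shortens signalling from G protein-coupled receptors and is a classical pericyte marker. It was at 254, 443 and 341 CPM in WT and 265, 333 and 308 CPM in KO. The KO libraries fell within the range of the WT libraries. Means were 346 ± 94.6 CPM (SD, n = 3) and 302 ± 34.1 CPM (SD, n = 3), and the log2 fold change was -0.20 (SE 0.23, 95% interval -0.70 to 0.31, edgeR adjusted p = 0.720). It was the only member with a negative value, and it was 0.011 without WT 2 and KO 3. Rgs5 (ENSMUSG00000026678.10) lies on chromosome 1 from 169655501 to 169695813 on the plus strand. With 5835 to 11603 counts in each library, it was the best counted of the 10 genes.

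The next members are receptors on the mural cell surface. Notch3, the Notch receptor that mural cells carry and that keeps them differentiated, was at 22.3, 22.7 and 26.0 CPM in WT and 34.4, 36.9 and 59.1 CPM in KO. No libraries overlapped between the groups, and KO 3 was far above the other KO libraries. Means were 23.7 ± 2.07 CPM (SD, n = 3) and 43.5 ± 13.6 CPM (SD, n = 3). The log2 fold change was 0.88 (SE 0.22, 95% interval 0.38 to 1.37), with an edgeR adjusted p of 0.309 and a DESeq2 adjusted p of 0.0518. It was 0.56 without WT 2 and KO 3 and 0.40 with the length and GC offset. Notch3 (ENSMUSG00000038146.7) lies on chromosome 17 from 32120820 to 32166852 on the minus strand, and the antisense gene Gm17276, with 170 counts in all against 4602, covers 6.03% of its exon bases.

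Cspg4 encodes NG2, a chondroitin sulfate proteoglycan of pericytes that glial and fat progenitors can also carry. It was at 32.8, 19.9 and 42.2 CPM in WT and 49.0, 64.5 and 123 CPM in KO. The KO libraries lay above the WT libraries, with WT 2 the lowest and KO 3 the highest of all. Means were 31.6 ± 11.2 CPM (SD, n = 3) and 78.8 ± 39.0 CPM (SD, n = 3), and the log2 fold change of 1.31 (SE 0.36, 95% interval 0.50 to 2.12) had the greatest size among the members. The edgeR adjusted p was 0.323 and the DESeq2 adjusted p 0.0199. Over the alternatives the adjusted p ran from 1.58e-07 to 0.719, the lowest with no count filter. The log2 fold change was 0.84 without KO 3, 0.60 without WT 2 and KO 3 and 0.79 with the length and GC offset. Cspg4 (ENSMUSG00000032911.6) lies on chromosome 9 from 56865033 to 56899870 on the plus strand.

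Pdgfrb, the PDGF receptor beta through which PDGF-B recruits pericytes, was at 22.4, 18.1 and 27.6 CPM in WT and 23.6, 33.0 and 61.4 CPM in KO. KO 1 lay within the WT range. Means were 22.7 ± 4.79 CPM (SD, n = 3) and 39.4 ± 19.7 CPM (SD, n = 3). The log2 fold change of 0.79 (SE 0.32, 95% interval 0.067 to 1.51, edgeR adjusted p = 0.413) was 0.32 without KO 3, 0.18 without WT 2 and KO 3 and 0.47 with the length and GC offset. Leaving out KO 3 thus moved it by more than its SE. Pdgfrb (ENSMUSG00000024620.11) lies on chromosome 18 from 61045150 to 61085061.

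The ligand genes of Pdgfrb had values of opposite sign. Pdgfb, the main ligand made by capillary endothelium, was at 23.5, 19.7 and 28.8 CPM in WT and 26.5, 40.1 and 46.8 CPM in KO (log2 0.65, SE 0.23, edgeR adjusted p = 0.375). Pdgfd, which encodes a second ligand of the beta receptor, was at 51.4, 50.2 and 34.1 CPM in WT and 25.4, 24.8 and 25.4 CPM in KO. The KO libraries of Pdgfd were nearly equal and all lay below the WT libraries. Its log2 fold change was -0.84 (SE 0.19), with an edgeR adjusted p of 0.305 (0.00529 to 0.574 over the alternatives) and a DESeq2 adjusted p of 0.0277, a call that 0.551% of genes had as lower. The alpha receptor Pdgfra, a fibroblast and preadipocyte marker, stood at -0.080 (SE 0.24). In this list of 5 genes 2 were positive and 0 passed in edgeR. The unadjusted edgeR p was under 0.05 for 1 higher and 1 lower, against 6.3% and 5.49% of all tested genes. Full separation with KO highest held for 0 and with KO lowest for 1, against 10.1% and 9.39%.

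All 17 other Notch pathway genes were tested, 13 were positive and 0 passed in edgeR, with a median log2 fold change of 0.27. Of these genes 2 were higher and 1 lower at an unadjusted edgeR p under 0.05, against 6.3% and 5.49% of all tested genes. Full separation with KO highest held for 3 and with KO lowest for 1, against 10.1% and 9.39%. Among the receptors, Notch1 was at 0.40 (SE 0.35) and Notch2 at 0.62 (SE 0.31). Without WT 2 and KO 3 they stood at -0.17 and 0.056. The ligand gene Jag1 stood at 0.090 (SE 0.21). Lfng, a glycosyltransferase that modifies Notch receptors, was at 4.94 to 5.53 CPM in WT and 6.55 to 9.06 CPM in KO, with no overlap (log2 0.61, SE 0.23). Hey2, a transcriptional repressor induced by Notch, was at 2.42, 3.60 and 9.18 CPM in WT and 1.77, 2.40 and 1.32 CPM in KO, again with no overlap (log2 -1.48, SE 0.50). Without WT 3, the highest library, Hey2 stood at -0.71. None of these 5 passed in edgeR with the count filter (adjusted p 0.374 to 0.867), and with no filter Hey2 did (adjusted p = 0.00519; up to 0.757 over the alternatives).

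Kcnj8 and Abcc9 encode the pore (Kir6.1) and the sulfonylurea receptor (SUR2) of the vascular ATP-sensitive potassium channel, which opens when cell energy is low and relaxes the vessel. Kcnj8 was at 9.57, 10.1 and 9.27 CPM in WT and 13.6, 14.1 and 22.1 CPM in KO. The WT libraries were almost level, and all KO libraries lay above them. Means were 9.66 ± 0.441 CPM (SD, n = 3) and 16.6 ± 4.80 CPM (SD, n = 3), with a log2 fold change of 0.78 (SE 0.23, 95% interval 0.27 to 1.29, edgeR adjusted p = 0.339). The value was 0.52 without KO 3, 0.56 without WT 2 and KO 3 and 0.72 with the length and GC offset.

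Abcc9 was at 26.3, 20.5 and 28.7 CPM in WT and 26.5, 38.0 and 61.9 CPM in KO. KO 1 fell within the WT range and KO 3 was the highest. The log2 fold change was 0.74 (SE 0.29, 95% interval 0.098 to 1.38, edgeR adjusted p = 0.398), 0.35 without KO 3, 0.23 without WT 2 and KO 3 and 0.66 with the length and GC offset. Per kilobase of exon, the channel genes were at like levels: 3.79 ± 0.173 for Kcnj8 and 3.01 ± 0.500 for Abcc9 in WT, and 6.52 ± 1.88 and 5.03 ± 2.16 in KO (CPM per kilobase, SD, n = 3 each). The pancreatic and neuronal counterparts ranged, in CPM per kilobase, from 0.275 to 1.33 for Kcnj11 (log2 0.72, SE 0.52) and from 0.0506 to 0.153 for Abcc8 (log2 -0.64, SE 0.49). For both the groups overlapped.

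The channel genes are neighbours on chromosome 6, both on the minus strand: Kcnj8 (ENSMUSG00000030247.9) from 142564837 to 142571614 and Abcc9 (ENSMUSG00000030249.15) from 142587862 to 142702315, with 16247 bases between them. Their promoters are printed because both genes had positive values and both windows hold the RBPJ core TGGGAA, in capitals. The RefSeq windows are chr6:142571565-142571864 and chr6:142702225-142702524 (GRCm38.p6, minus strand, 5′ to 3′).
Kcnj8: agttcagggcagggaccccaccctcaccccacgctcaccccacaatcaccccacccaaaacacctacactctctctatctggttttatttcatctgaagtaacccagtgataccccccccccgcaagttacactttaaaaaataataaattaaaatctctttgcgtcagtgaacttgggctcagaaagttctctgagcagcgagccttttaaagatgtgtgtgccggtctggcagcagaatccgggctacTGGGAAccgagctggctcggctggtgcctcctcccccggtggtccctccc
Abcc9: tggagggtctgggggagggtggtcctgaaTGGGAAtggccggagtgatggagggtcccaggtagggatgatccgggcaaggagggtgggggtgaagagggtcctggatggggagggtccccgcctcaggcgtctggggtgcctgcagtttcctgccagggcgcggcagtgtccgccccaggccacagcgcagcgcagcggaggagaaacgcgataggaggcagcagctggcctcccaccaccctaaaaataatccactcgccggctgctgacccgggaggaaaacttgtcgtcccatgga
The same core is absent from the windows of Cnn1, Rgs5, Cspg4 and Notch3, and with 25.6% of all windows holding it, its presence in 3 of 7 windows is a description only. The Abcc9 window had 65.7% GC, that of Kcnj8 53.3% and that of Acta2 54.7%.

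Across genes, levels were compared per kilobase of annotated exon. That length joins the exons of all annotated transcripts of a gene. For Cnn1 it was 2736 bases against a median transcript length of 1046.5, and for Pdgfrb 5478 against 5415. The order given here rests on that length, and an order by transcript length was not computed. In WT, Rgs5 was the highest at 76.1 ± 20.8 CPM per kilobase, followed by Acta2 at 15.7 ± 1.71 (SD, n = 3 each). Pdgfrb (4.15 ± 0.874), Kcnj8 (3.79 ± 0.173), Myh11 (3.60 ± 0.369), Abcc9 (3.01 ± 0.500), Notch3 (2.93 ± 0.256) and Cspg4 (2.65 ± 0.937) followed, and each neighbour in that order overlapped the next between libraries. Cnn1 (1.16 ± 0.337) and Tagln (0.254 ± 0.0420) lay below all of them. In KO the same genes were at the top, with Rgs5 at 66.4 ± 7.49 and Acta2 at 20.9 ± 2.79, and Cspg4 came after Pdgfrb, at 6.61 ± 3.27 CPM per kilobase.

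**Figure D2:**
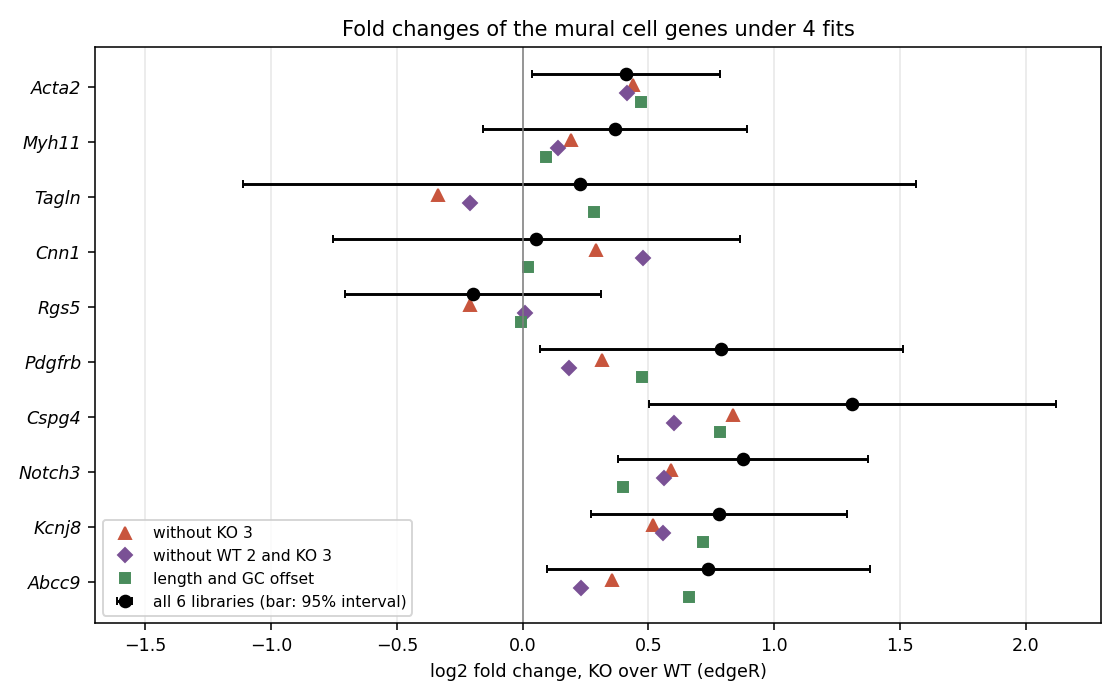
Log2 fold changes (KO over WT, edgeR) of the 10 mural genes with all 6 libraries (black, bars are 95% intervals), without KO 3, without WT 2 and KO 3, and with an offset for transcript length and GC content. Acta2 lies between 0.41 and 0.47 in all of these, but at 0.30 in the fit without KO 2, which is not drawn. Pdgfrb, Cspg4, Abcc9, Notch3, Kcnj8 and Myh11 lie nearer to 0 in the fits without KO 3.

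Particular libraries held the extreme values of several members. WT 2 was the lowest and KO 3 the highest of the 6 libraries for Cspg4, Pdgfrb and Abcc9. KO 3 was also the highest for Myh11, Tagln, Notch3 and Kcnj8. Over all tested genes, levels moved with GC content most in KO 3 and with transcript length most in WT 2. In the upper 25% of genes by transcript GC content (from 55.04%), the median log2 CPM relative to each gene's mean was 0.29 in KO 3, -0.15 in WT 2 and between -0.12 and 0.052 in the others. The median log2 fold change was 0.23 there and -0.20 in the lower 25%. In the 25% of genes with the longest transcripts (from 3248.5 bases) WT 2 stood at -0.17 and KO 3 at 0.10. Notch3 (60.3% GC) and Cspg4 (59.2% GC) belong to the upper GC class and Rgs5 (43.3%) to the lowest. The middle classes hold Pdgfrb (55.00%, just under the limit), Cnn1 (54.7%), Myh11 (53.4%), Tagln (52.4%), Kcnj8 (52.4%), Acta2 (50.2%) and Abcc9 (46.3%). The class of longest transcripts holds Myh11, Pdgfrb, Cspg4, Notch3 and Abcc9. The part of these trends in the mural values was not tested beyond the offset.

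**Figure D3:**
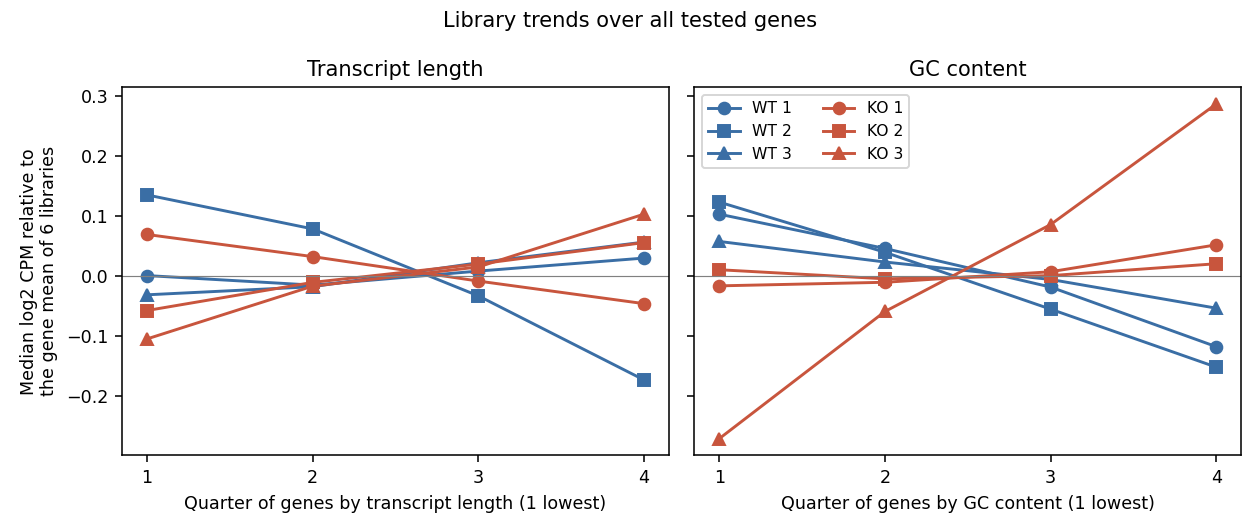
Median log2 CPM relative to each gene's mean over the 6 libraries, for 4 equal classes of all tested genes by transcript length (left) and GC content (right). KO 3 runs from -0.27 in the lowest to 0.29 in the highest GC class, and WT 2 from 0.14 in the shortest to -0.17 in the longest class.

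Of 16 other pericyte markers 15 were tested, 12 were positive and 0 passed in edgeR, with a median log2 fold change of 0.39. There were 2 higher and 1 lower at an unadjusted edgeR p under 0.05, against 6.3% and 5.49% of all tested genes. Cd248, the endosialin gene of pericytes and fibroblasts, was at 1.66, 1.73 and 2.65 CPM in WT and 4.23, 4.08 and 6.11 CPM in KO (log2 1.24, SE 0.32, edgeR adjusted p = 0.310, or 0.0352 with no filter). Anpep, which encodes aminopeptidase N, was at 3.53 to 3.60 CPM in WT and 4.91 to 6.30 CPM in KO (log2 0.63, SE 0.25, edgeR adjusted p = 0.399). Neither overlapped between the groups. In this list full separation with KO highest held for 3 genes and with KO lowest for 0, against 10.1% and 9.39% of all tested genes. Steap4, Mcam and Ednrb, the most abundant of the list, were at 0.46 (SE 0.35), 0.14 (SE 0.24) and -0.52 (SE 0.21), with overlapping libraries.

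Angiopoietin and TGF-beta signals, by which endothelium and mural cells stabilise each other, had 9 of 16 genes positive. Their median was 0.26, and 0 passed in edgeR. Full separation with KO highest held for 1 and with KO lowest for 0, against 10.1% and 9.39% of all tested genes. At an unadjusted edgeR p under 0.05, 2 were higher and 0 lower, against 6.3% and 5.49% of all tested genes. Tgfb2, a TGF-beta ligand gene, was at 0.618 to 0.687 CPM in WT and 1.0 to 1.95 CPM in KO without overlap (log2 1.23, SE 0.44). The receptor genes Tgfbr2 (-0.24, SE 0.18), Tie1 (0.28, SE 0.30) and Eng (0.57, SE 0.31) overlapped between the groups.

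**Figure D4:**
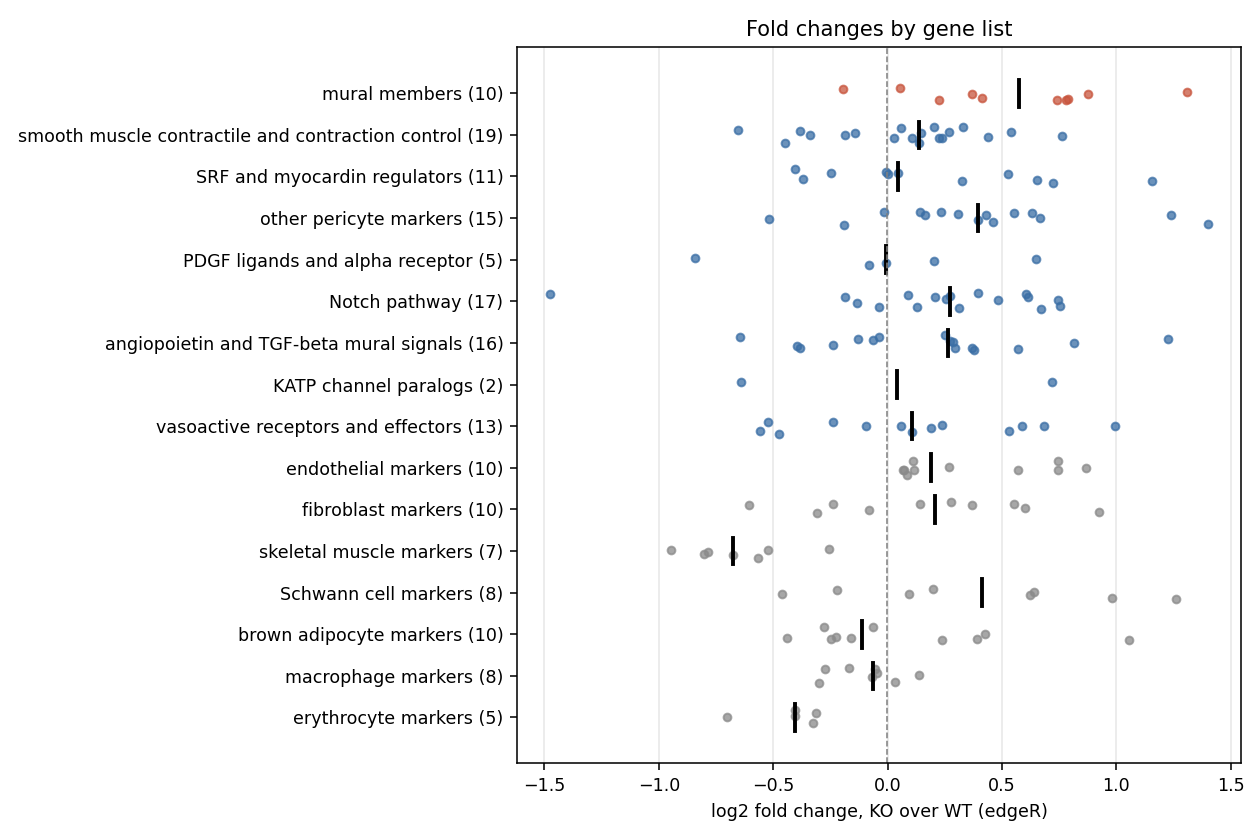
Log2 fold changes (KO over WT, edgeR) of every tested gene in each list, with the number tested in brackets; black bars are list medians and the dashed line is the median of all tested genes. Red points are the 10 mural genes (median 0.58), blue points related pathways and grey points markers of single cell types.

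Markers of other cells were read beside these values. Of all tested genes 49.8% were positive. Median log2 fold changes were 0.19 for endothelial, 0.21 for fibroblast and 0.41 for Schwann cell markers. They were -0.68 for skeletal muscle, -0.062 for macrophage and -0.40 for erythrocyte markers. All 10 endothelial markers were positive and 0 passed in edgeR; they summed to 500 to 776 CPM in WT and 573 to 1059 CPM in KO. Their lowest library was WT 2 and their highest KO 3, as for Cspg4, Pdgfrb and Abcc9. Fibroblast markers, read because fibroblasts can express Pdgfrb, had 6 of 10 positive and summed to 960 to 1218 CPM in WT and 1205 to 1389 CPM in KO. Schwann cell markers, whose cells may carry Cspg4, had 6 of 8 positive and summed to 162 to 181 CPM and 145 to 208 CPM. Skeletal muscle markers, from muscle that borders the pad, had 0 of 7 tested positive and summed to 8.08 to 41.7 CPM and 2.0 to 36.4 CPM. Macrophage markers had 2 of 8 positive and summed to 90.6 to 151 CPM and 71.9 to 131 CPM. Erythrocyte markers had 0 of 5 positive and summed to 722 to 901 CPM and 499 to 758 CPM. No marker of these 6 lists was at 0 in all libraries, and the part of these cells in the mural values was not tested.

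By the mean absolute difference of centred log2 CPM over the 6 libraries, the genes of closest pattern to Acta2 among 13220 with a mean of at least 1 CPM were Axl (0.045), Il18bp (0.051), Rin2 (0.053), Frat2 (0.055) and Gabpb2 (0.063). Of the members, Myh11 was nearest to Acta2, at 0.17, and the median over those genes was 0.32. For Rgs5 they were Wdr33 (0.057), Sra1 (0.063), Slc33a1 (0.063), Wdr77 (0.064) and Rhob (0.064), and Cnn1 was the nearest member at 0.27. These are descriptions with no test.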

How the data were processed

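Poly(A) RNA of brown fat was sequenced from stranded libraries, per the labels' protocols. The values deposited by the authors are raw counts per gene; the submitters' processing notes name build mm10, HISAT2 (2.1.0), featureCounts (1.6.2) and DESeq2. Which annotation was counted, and with which strand setting, is not given in the sources used. Columns were matched to samples by title. Of 53715 identifiers, 53620 matched GENCODE M 21 without version; exon lengths, transcript lengths and GC content came from that release. Identical pairs of libraries numbered 0.

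The filterByExpr rule, with a count of at least 10 and a total of at least 15, left 15123 genes. KO was set against WT in edgeR 4.0.16 (quasi-likelihood test, R 4.3.3) with TMM factors and genotype as the only term, and p-values were adjusted over all tested genes by Benjamini-Hochberg with a threshold of 0.05. Standard errors are the size of the log2 fold change over the square root of the F statistic; 95% intervals use the moderated degrees of freedom. Alternatives used DESeq2 1.42.0, limma 3.58.1 and the settings of the closing section. From each related list the 3 genes of highest level, any past the threshold, and up to 2 more without overlap and of smallest p were named. Some results that this rule names are not reported here. The members and lists were chosen with earlier results of these data known.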

Additional observations from a re-analysis of the deposited data

How the results depend on the processing

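Acta2, Myh11 and Kcnj8 kept their direction and stayed short of the threshold in all 15 alternatives, and Pdgfrb, Cspg4, Notch3 and Abcc9 kept their direction. DESeq2 called 85 genes higher and 82 lower, with 1 member (Cspg4). With no filter 330 were higher and 333 lower, with 4 members, on a median of 111496 degrees of freedom against 9.61. The stricter filter, which leaves Tagln untested, gave a members' median of 0.74. Same-numbered libraries had correlated deviations of -0.11, 0.10 and 0.091, so the numbers were not taken as pairs; the fit with the replicate block called 1 gene higher and 4 lower. The length and GC offset, chosen after the data were seen, called 1 gene higher and 6 lower, with a members' median of 0.43. Without both WT 2 and KO 3, 14 genes were higher and 13 lower, and the members' median was 0.32. Leaving out 1 library gave 0 to 9 genes higher, 0 to 9 lower and members' medians of 0.33 (without KO 3) to 0.77 (without KO 1).

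Some signs turned. Leaving out 1 library, log2 fold changes ran from -0.34 to 0.62 for Tagln, -0.16 to 0.29 for Cnn1, -0.38 to 0.020 for Rgs5, -0.085 to 0.22 for Mylk, -0.60 to 0.084 for Csrp2, -0.47 to 0.15 for Csrp1, -0.053 to 0.38 for Mcam and -0.23 to 0.17 for Pdgfra. They ran from -0.059 to 0.27 for Jag1, -0.21 to 0.036 for Adra1a and -0.043 to 0.27 for Gna11. Without both WT 2 and KO 3 they were -0.21 for Tagln, 0.011 for Rgs5, -0.079 for Mylk, 0.27 for Csrp2, 0.19 for Csrp1, -0.21 for Mcam, -0.17 for Notch1, -0.16 for Jag1, -0.13 for Tie1 and -0.14 for Gna11. Eng (0.083), Cacna1c (0.41), Pdgfb (0.35) and Nos3 (0.18) kept their sign there. With the offset they were -0.029 for Des, -0.14 for Mylk, -0.021 for Jag1, -0.051 for Tie1 and -0.16 for Gna11. The cause was not tested. The Pgam5 call was lost without WT 1, WT 3, KO 1 or KO 2, in limma and under the block (adjusted p up to 0.165), where the log2 fold change ran from -5.21 to -4.35.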

Other observations

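Of 15 receptors and effectors of vessel tone 13 were tested, 8 were positive and 0 passed in edgeR. The unadjusted edgeR p was under 0.05 for 1 higher and 2 lower, against 6.3% and 5.49% of all tested genes. The groups were fully separated with KO highest for 3 and with KO lowest for 3, against 10.1% and 9.39% of all tested genes. Nos3, the endothelial nitric oxide synthase gene, stood at 0.69 (SE 0.28) with the KO libraries on top, and at 0.18 without WT 2 and KO 3. The adrenergic receptor gene Adra1a (-0.096, SE 0.17) and the G protein gene Gna11 (0.11, SE 0.20) overlapped.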
